A study of Gallus gallus with 77 samples.

Results

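The late and early phases of the transcriptional response to a laser wound were compared in sensory epithelia (SE) from the chick cochlea, kept in culture. The quantity described is late minus early, the mean log2 ratio of laser over control at 2 hrs and 3 hrs minus the mean at 30 min and 1 hr. It was taken for all 1507 genes on the array that are not controls, out of 1534 names, and 1504 of them were bright enough to be tested. The SE came from post-hatch White Leghorn chicks of wild type, were freed from the underlying tissue with an enzyme and were grown as flat cultures before a pulsed laser microbeam cut lines through them. The controls were unlesioned cultures taken at the same time, and each RNA came from a pool of several cultures. Each array received lesioned and control RNA at once, labelled with different dyes, on 50 mer probes designed to human transcription factors. The early phase holds 42 arrays of 4 biological replicates and the late phase 35 arrays of 4 biological replicates, 2 for each time point, a total of 77 arrays. Arrays of a replicate repeat the same RNA pair, so n is 4 in each phase. What limits the model is that no wound of a living ear was sampled, that laser and control RNA were amplified before labelling, and that a human probe may bind its chick transcript weakly or not at all.

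In most vertebrate cells, injury first switches on immediate early genes such as *EGR1*, *FOS* and *JUN*, whose transcripts are induced without new protein synthesis and fade again soon after. Their targets and the genes of cell migration and cell cycle entry follow. In the chick cochlea, supporting cells can later divide or turn directly into new hair cells, and factors of the hair cell lineage such as *ATOH1* and *POU4F3* mark that path. The comparison of late with early arrays asks which transcription factors differ between the first and the following hours after wounding.

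Arrays had a median spot signal of 1653 in the early phase (783 to 3845) and 1562 in the late phase (848 to 3567). Signal over local background was 4.25 and 3.01 in the median array of each phase. The early phase was not uniform. Its 30 min arrays were dimmer than its 1 hr arrays (median signal 1233 against 2851) but stood higher over background (5.30 against 2.76). Late arrays had 2.92 (2 hrs) and 3.05 (3 hrs), so only the 30 min arrays stood out. Whether this bears on differences that rest on 30 min was not tested. The sign was turned on the 38 arrays that carried laser RNA labelled with Cy3, and kept on 39 labelled the other way. Across genes, the means of both orientations were then negatively correlated in 8 of 8 replicates (r from −0.64 to −0.24, and under −0.3 in 7 of 8). The direction of a single ratio is therefore not settled, although the dye in the image name matched the label on 77 of 77 arrays. A dye difference that is the same on every array cancels in late minus early, also within 1 orientation. Values for each orientation are given below for the 16 named genes. Each array carries a header date, and which step was done on that day is not stated. Header day and phase cannot be told apart for 30 min and 3 hrs, which share no day with the other phase. On 2 days by this date, 11 arrays of 1 hr and 10 arrays of 2 hrs fell together. Of these days 1, called the day with both phases below, held both replicates of each.

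No gene differed between late and early at an adjusted p under 0.05 in limma (0 of 1504, smallest adjusted p 0.71). With the threshold that the study used (p under 0.05 before adjustment, and over 1.2-fold), 22 genes were called (1.46% of those tested), 14 higher late (0.931%) and 8 lower late (0.532%). Each is a candidate at that threshold alone. The split depended on the normalization, with 20 higher and 8 lower under median centring in place of loess, 7 higher and 8 lower under loess within print blocks, 9 and 8 after scaling between arrays, 23 and 33 under plain background subtraction, 3 and 3 with no background correction, and 4 and 4 in the authors' table with centred columns. Without the fold threshold, 93 genes had p under 0.05 (6.18%, where the threshold itself allows 5%), 55 higher late (3.66%) and 38 lower (2.53%). Conversely, 24 genes (1.60%) passed 1.2-fold at any p. The 2 that were not called were *PRDM13* (0.34, p = 0.24 in limma), which read 1.66 at 3 hrs replicate 2 and −0.90 at 2 hrs replicate 2, and *LOC51058* (0.27, p = 0.08). The differences were small. The called genes lay between 1.2-fold and 1.44-fold, and the median absolute difference over all genes was 0.07 on the log2 scale, below the median standard error of 0.09. The 95% interval of the difference lay inside 1.5-fold in either direction for 1500 genes (99.7%) and inside 2-fold for all 1504. These bounds are those of the array ratio averaged over both dye orientations, turned as labelled. They are not those of the transcript or of 1 orientation. With laser RNA in Cy5, *PRDM13* differed by 0.90 ± 0.33, and with laser RNA in Cy3 by −0.23 ± 0.35. In 51 genes (3.39%) the 4 late values all lay on 1 side of the 4 early values, above them in 29 (1.93%) and below in 22 (1.46%), which gives the smallest p an exact two-sided permutation test of 4 against 4 can reach (0.029). That smallest p is also the share of genes expected to separate if phase made no difference, and the share seen was close to it. Of these 51 genes, 8 were also called, and the other 43 differed by 1.06-fold to 1.2-fold. In tissue RNA, fewer cells of a type and less RNA per cell cannot be told apart.

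The 16 genes described by name below are the 8 called genes with phases that did not overlap, the 10 called genes that belong to a fixed list of pathways, and the 3 genes with the largest difference, some of them under more than 1 of these. For 15 of the 16, the sign was the same in both dye orientations, which selection on the mean of both orientations favours. The smallest differences among the called genes were just over 1.2-fold, and *POU4F3*, just under it, is described as well, chosen after its values were seen.

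**Figure D1:**
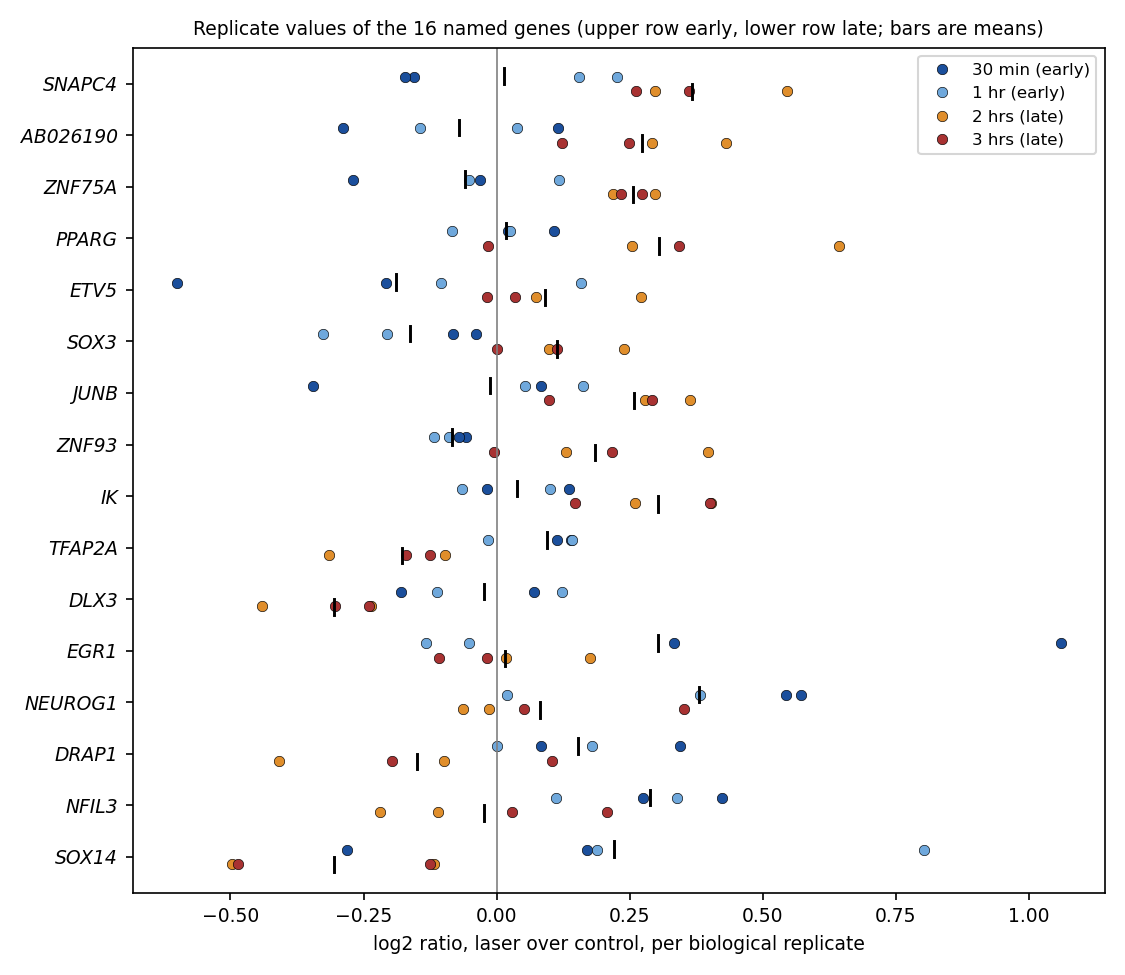
Log2 ratio of laser over control in each of the 8 biological replicates for the 16 named genes, with the 4 early replicates in the upper row of each gene and the 4 late ones in the lower row. Black bars are phase means. The rows of *SNAPC4*, *ZNF75A*, *TFAP2A* and *DLX3* are among the 8 that do not overlap, while *EGR1* is spread by its 2 values at 30 min (0.33 and 1.06).

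Among the immediate early genes, *EGR1*, a zinc finger factor induced within minutes of growth factor or wound signals, was high only at 30 min. Its log2 ratios at 30 min were 0.33 and 1.06, followed by −0.05 and −0.13 at 1 hr, 0.17 and 0.02 at 2 hrs, then −0.11 and −0.02 at 3 hrs. Both values at 30 min were above the other 6, but the phases overlapped because the values at 1 hr were below those at 2 hrs. The difference was −0.29 ± 0.13 (SE of the limma fit, n = 4 and 4). Its limma p was 0.041 (Benjamini-Hochberg adjusted p = 0.77), and without 30 min the difference was 0.11. The step from 30 min to 1 hr was −0.79 on the log2 scale (unadjusted p = 0.00066 in limma). This rested on 1 dye orientation. At 30 min, 11 of 12 laser-in-Cy3 arrays were above 0 (median 1.90), against 6 of 13 laser-in-Cy5 arrays (median −0.07). The contrast was −0.61 in the first and 0.04 in the second, and the difference of the orientations had p = 0.028 (adjusted p = 0.72). The mean signal of *EGR1* was 1407, with 735 at the dimmest time point. That is below the brightness minimum of 1000, and *EGR1* entered the fit through brighter time points. The call was lost without 6 of the 8 replicates, namely 30 min replicate 2, both of 1 hr, 2 hrs replicate 2 and both of 3 hrs (values from −0.47 to −0.11 over all 8).

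*JUNB*, a subunit of the AP-1 dimer, moved the other way. Its early values were −0.35, 0.08, 0.05 and 0.16, and its late values 0.28, 0.36, 0.29 and 0.10, each in order of time and replicate. Of the 4 late values, 3 were above every early value, and the remaining one, 3 hrs replicate 2, lay among them. Late minus early was 0.27 ± 0.10 (p = 0.017, adjusted p = 0.72 in limma). It was positive in both orientations (0.20 in the Cy3 one, named by the dye of the laser RNA, and 0.34 in the Cy5 one), with neither at p under 0.05. It was 0.15 without 30 min, with the call lost. Leaving out 1 replicate lost the call for 30 min replicate 1, 1 hr replicate 1, 2 hrs replicate 2 and 3 hrs replicate 1 (0.16 to 0.38 over all 8).

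The other immediate early and AP-1 genes that were tested did not separate by phase. Of 26 tested, 1 was called higher and 1 lower (7.69%, against 1.46% of all genes). The median late minus early was 0.01, against 0.00 over all genes. *FOS*, the partner of JUN proteins in AP-1, differed by 0.05 ± 0.09, *JUN* by 0.00 ± 0.08 and *ATF3*, a stress-induced bZIP repressor, by −0.01 ± 0.08. Their 95% intervals ran from −0.15 to 0.25, from −0.17 to 0.18 and from −0.18 to 0.17. The replicates of *FOS* ranged from −0.12 to 0.15 early and from −0.11 to 0.18 late, so that no phase stood apart. The study lists *FOS* as raised in the cochlea at its earliest laser time point, and more so by quantitative PCR on new samples. That rise was not reproduced in the ratios here, which read −0.12 and 0.15 at 30 min. These ratios therefore do not show that *FOS* failed to respond to the wound. *JUN* read −0.27 and −0.04 at 30 min, 0.16 and 0.22 at 1 hr and −0.08 to 0.17 late. Its step from 30 min to 1 hr was 0.34 (unadjusted p = 0.011 in limma). The smallest adjusted p of any gene for that step was 0.35. *JUND*, another AP-1 subunit, was not found under that name and is not among the 26 genes. The study lists *JUND* as raised in the cochlea at its last laser time point, and more so by quantitative PCR on new samples. Whether *JUND* differed between late and early was not tested here.

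Among 20 targets and mediators of ERK and SRF signalling, 1 was called (5.00%, against 1.46% of all genes). This was *ETV5*, an ETS factor whose transcript follows FGF and ERK activity. It read −0.60 and −0.21 at 30 min and −0.11 and 0.16 at 1 hr, against 0.27, 0.07, 0.03 and −0.02 late. Replicate 1 at 30 min was the lowest of the 8 by far, and 1 hr replicate 2 was higher than 3 of the 4 late values. Late minus early was 0.28 ± 0.10 (p = 0.016, adjusted p = 0.72 in limma), the step from 30 min to 1 hr was 0.43 (p = 0.010), and on the day with both phases the sign was opposite (−0.09). It was 0.34 in the Cy3 orientation and 0.22 in the Cy5 one. Without 30 min it was 0.064. The call was lost without 30 min replicate 1, 1 hr replicate 1 or 2 hrs replicate 1 (0.18 to 0.38 over all 8). The median of the list was −0.03, and *SRF* itself differed by −0.14 ± 0.09. Of the 20 genes, 14 were lower late, against 729 of all 1504 genes. The list median was 0.00 in the Cy3 orientation and −0.04 in the Cy5 one.

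**Figure D2:**
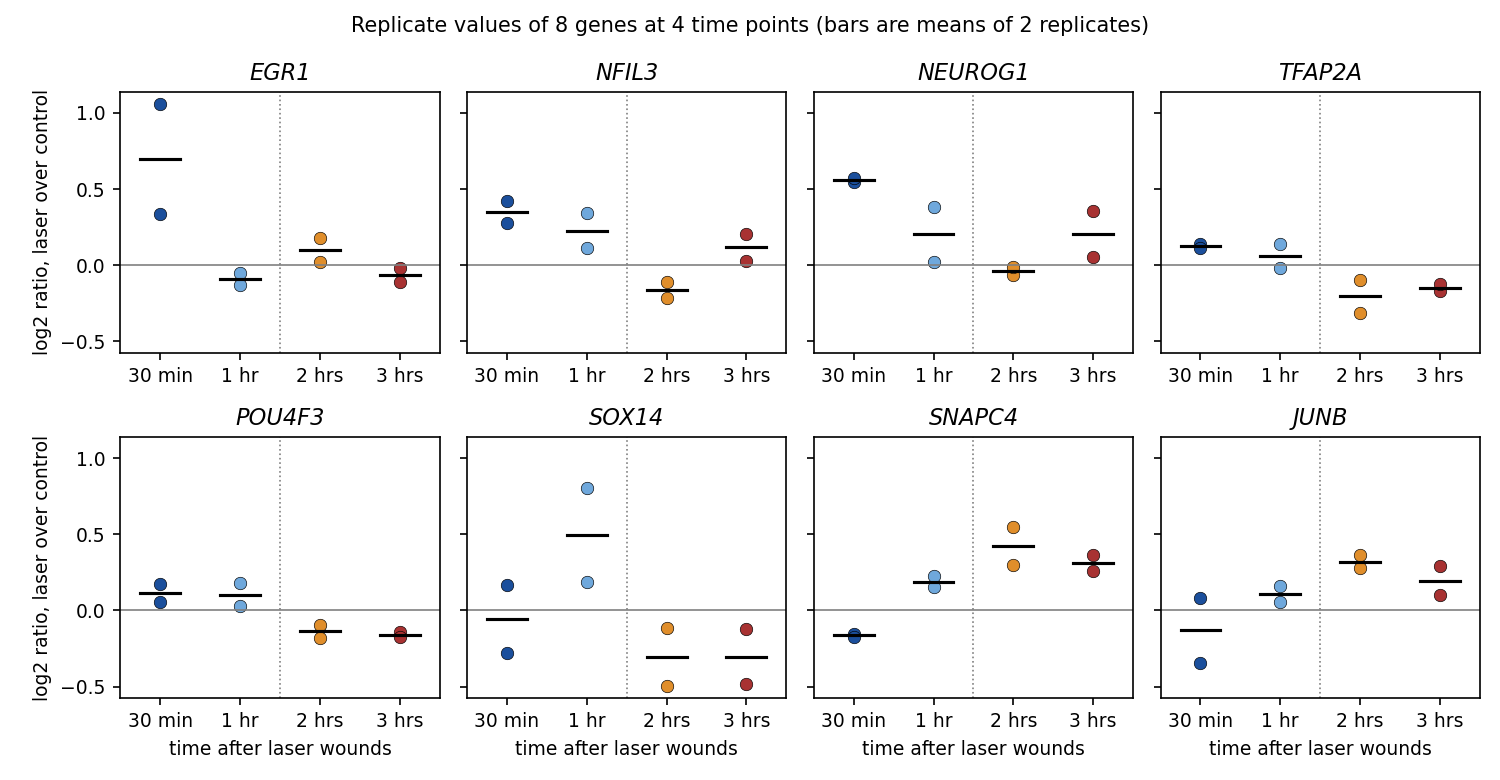
Log2 ratio of laser over control at each of the 4 time points for 8 genes, with 2 replicates as points and their mean as a bar; the dotted line divides early from late. *EGR1* is high at 30 min alone, *POU4F3* and *TFAP2A* have every late replicate below every early one, and the 2 late time points of *SOX14* have means of −0.31 and −0.31.

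In the hair cell and otic sensory lineage, 2 of 30 genes were called (6.67%, against 1.46% of all genes), both lower late, and 3 had p under 0.05 (against 6.18% of all genes). *TFAP2A*, which encodes AP-2 alpha, a factor of the neural crest, the epidermis and the early otic placode, read 0.14, 0.11, 0.14 and −0.02 early and −0.31, −0.10, −0.17 and −0.12 late. All late values were below all early ones. The difference was −0.27 ± 0.08 (p = 0.0054, adjusted p = 0.71 in limma), with −0.24 and −0.30 in the 2 orientations and −0.34 on the day with both phases. Its exact permutation p of 0.029 is fixed by the lack of overlap and is no further test. The call was lost without 1 hr replicate 1, 2 hrs replicate 1 or 3 hrs replicate 1 (−0.33 to −0.22 over all 8).

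*NEUROG1*, the proneural factor that starts the otic neuron lineage, was 0.54 and 0.57 at 30 min and 0.02 and 0.38 at 1 hr, against −0.06, −0.01, 0.35 and 0.05 late. The 30 min values were the highest, and the phases overlapped because 1 hr replicate 1 was below both values at 3 hrs. Late minus early was −0.30 ± 0.10 (p = 0.0091, adjusted p = 0.72 in limma), with −0.23 and −0.37 in the 2 orientations. It was −0.15 on the day with both phases, −0.12 without 30 min, −0.18 without 2 hrs and −0.11 under plain background subtraction, with the call lost in each. The call was lost without 1 hr replicate 2 or 3 hrs replicate 2 (−0.39 to −0.21 over all 8).

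*POU4F3*, the POU factor that hair cells need to mature and survive, fell just short of the fold threshold. Its early values were 0.18 and 0.06 at 30 min and 0.18 and 0.03 at 1 hr, and its late values −0.10 and −0.18 at 2 hrs and −0.14 and −0.18 at 3 hrs. Every early value was above 0 and every late value below 0. The phase means were 0.11 ± 0.08 and −0.15 ± 0.04 (SD, n = 4 each). The difference was −0.26 ± 0.08 (p = 0.0057, adjusted p = 0.71 in limma, and an exact permutation p of 0.029 that is fixed by the separation already seen). Leaving out 1 replicate at a time gave −0.30 to −0.22, each with p under 0.05. It was −0.14 in the Cy3 orientation (p = 0.245 in limma) and −0.38 in the Cy5 one (p = 0.0049). On the shared days with a day term it was −0.11 (p = 0.34), and on the day with both phases −0.18 (p = 0.23). Plain background subtraction gave −0.20 (p = 0.12). Other factors of the lineage did not separate. *ATOH1*, which starts hair cell differentiation, differed by 0.06 ± 0.08, *SOX2*, kept by supporting cells, by 0.12 ± 0.08 and *GATA3* by 0.01 ± 0.11. The study lists *GATA3* as lowered in the cochlea at 2 hrs after laser, by array and by quantitative PCR on new samples. That is 1 time point against its control, not late minus early. Over the whole list 15 genes were higher and 15 lower late, with a median of 0.00.

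Among 18 circadian genes, 1 was called (5.56%, against 1.46% of all genes). This was *NFIL3*, a bZIP repressor that acts on D-box promoters of the clock output, lower late. It read 0.27, 0.42, 0.11 and 0.34 early, against −0.11, −0.22, 0.03 and 0.21 late. The 4 early values were all above 0, and the phases overlapped through 3 hrs replicate 2, which was above 1 hr replicate 1. The difference was −0.31 ± 0.09 (p = 0.0032, adjusted p = 0.71 in limma), and nearly the same in the Cy3 (−0.33, p = 0.020) and the Cy5 orientation (−0.30, p = 0.045). *NFIL3* was the 1 gene called in both orientations with the same sign (0.0665% of genes), against 6 called in both with opposite signs (0.399%). On the day with both phases it was −0.57, and without 2 hrs −0.17 with the call lost. The call was lost without 1 hr replicate 2 (−0.37 to −0.25 over all 8). The core clock genes *CLOCK*, *ARNTL* and *PER2* differed by −0.08 ± 0.07, 0.03 ± 0.08 and 0.01 ± 0.09. Of the 18 genes, 12 were lower late (median −0.06), against 729 of all 1504 genes. The list median was −0.08 in the Cy3 orientation and 0.03 in the Cy5 one.

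*SOX14*, a SOX factor that represses transcription, had the largest difference of all genes with the signs turned as labelled. Its early values were 0.17 and −0.28 (30 min) and 0.80 and 0.19 (1 hr), and its late values −0.50, −0.12, −0.12 and −0.49. Replicate 2 at 30 min lay within the late range and the other early values were above all late ones. The difference was −0.53 ± 0.15 (95% interval −0.84 to −0.21, p = 0.0031, adjusted p = 0.71 in limma), or 1.44-fold lower, and the call held without each of the 8 replicates (−0.68 to −0.37). It was lost without the 1 hr time point (−0.25, p = 0.13 in limma), and the Cy3 orientation alone had p = 0.15. With no array turned the value was −0.052. On the day with both phases it was −0.91. The 2 orientations gave −0.47 and −0.58. Its ratio within an orientation was far from 0 in opposite senses. In the Cy3 orientation, 20 of 21 early arrays and 14 of 17 late ones were above 0, and in the Cy5 orientation 19 of 21 early and 18 of 18 late arrays were below 0. *SOX3*, a SOX factor of neural and placodal progenitors, went the other way, from −0.04, −0.08, −0.21 and −0.33 early to 0.24, 0.10, 0.00 and 0.11 late. Its phases did not overlap, with a difference of 0.28 ± 0.08 (p = 0.0038, adjusted p = 0.71 in limma). The lowest laser-in-Cy3 array at 1 hr read −2.665, against a median of −0.17. With the median over arrays within an orientation in place of their mean, late minus early was 0.15 (p = 0.08 in limma), with the call lost. The value was 0.068 on the day with both phases (p = 0.67 in limma) and 0.17 without the 1 hr time point. *SOX3* differed by 0.35 in the Cy3 orientation and 0.21 in the Cy5 one. Its call was lost without 1 hr replicate 2, 2 hrs replicate 1 or 3 hrs replicate 2 (0.24 to 0.31 over all 8).

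*DLX3*, a homeobox factor of the epidermis and the placodes, was lower late without overlap. It was 0.07, −0.18, 0.12 and −0.11 early and −0.44, −0.24, −0.24 and −0.30 late. The early values lay on both sides of 0 and the late ones were all below it, but single arrays differed in sign by orientation. In the Cy3 orientation, 18 of 21 early arrays and 11 of 17 late ones were above 0. In the Cy5 one, 19 of 21 early and 17 of 18 late arrays were below 0. The difference was −0.28 ± 0.09 (p = 0.0090, adjusted p = 0.72 in limma), with −0.34 and −0.22 in the 2 orientations. This call did not hold without 30 min replicate 1, 1 hr replicate 1 or 2 hrs replicate 1 (−0.34 to −0.22 over all 8).

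*SNAPC4*, the largest subunit of the complex that starts transcription of small nuclear RNA genes, had the lowest p of all genes. The 30 min replicates read −0.15 and −0.17, those of 1 hr 0.15 and 0.23, those of 2 hrs 0.30 and 0.55 and those of 3 hrs 0.36 and 0.26. The phases did not overlap, and the step between the 2 early time points was 0.35 (unadjusted p = 0.0092 in limma). The difference was 0.35 ± 0.08 (95% interval 0.18 to 0.53, p = 0.00081, adjusted p = 0.71 in limma), and the call held without each of the 8 replicates (0.29 to 0.41). It was lost without the 30 min time point, where the value was 0.18 (p = 0.11 in limma). The orientations did not give the same value. The contrast was 0.68 in the Cy3 orientation and 0.03 in the Cy5 one, and their difference had p = 0.0084 (adjusted p = 0.72). On the day with both phases it was 0.14.

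Other parts of the basal machinery were mostly level. Of 52 general transcription genes, 1 was called (1.92%, against 1.46% of all genes), *DRAP1*, which with DR1 represses TBP at promoters. It read 0.35, 0.08, 0.00 and 0.18 early and −0.10, −0.41, 0.10 and −0.20 late, overlapping through 3 hrs replicate 1, and differed by −0.30 ± 0.10 (p = 0.012, adjusted p = 0.72 in limma). The Cy3 orientation gave −0.36, the Cy5 one −0.24, and its 2 printed spots −0.14 and −0.46. It was −0.057 on the day with both phases, −0.098 with no background correction and −0.67 under plain background subtraction. It was not called without 30 min replicate 1, 1 hr replicate 2, 2 hrs replicate 2 or 3 hrs replicate 2 (−0.38 to −0.23 over all 8). *IK*, a nuclear protein of the spliceosome, was higher late without overlap, from 0.14, −0.02, −0.07 and 0.10 to 0.26, 0.40, 0.40 and 0.15. The difference of *IK* was 0.26 ± 0.09 (p = 0.010, adjusted p = 0.72 in limma), nearly equal in both orientations (0.26 and 0.27), and the call was lost without 30 min replicate 2, 1 hr replicate 1, 2 hrs replicate 2 or 3 hrs replicate 1 (0.20 to 0.33 over all 8).

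Among 47 nuclear receptors, 1 was called (2.13%, against 1.46% of all genes). This was *PPARG*, the fatty acid receptor that drives fat cell differentiation, higher late. Its early values were 0.11, 0.02, 0.03 and −0.08 and its late values 0.25 and 0.64 at 2 hrs and 0.34 and −0.02 at 3 hrs. Of the late values 3 stood above the early range, and 3 hrs replicate 2 lay within it. The difference was 0.29 ± 0.10 (p = 0.016, adjusted p = 0.72 in limma), 0.15 in the Cy3 orientation and 0.42 in the Cy5 one, and 0.15 without 2 hrs. It was not called without 30 min replicate 2, 1 hr replicate 2, 2 hrs replicate 2 or 3 hrs replicate 1 (0.19 to 0.39 over all 8). *ESR1* and *RARA*, the receptors of oestrogen and retinoic acid, differed by 0.24 ± 0.09 (p = 0.023, adjusted p = 0.77 in limma) and 0.18 ± 0.08 (p = 0.039, adjusted p = 0.77) without passing the fold threshold. The median of the list was −0.01, with 22 genes higher and 25 lower late.

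Of 167 numbered zinc finger genes 2 were called (a share below the 1.46% of all genes), both higher late and both without overlap. *ZNF75A* read −0.27, −0.03, −0.05 and 0.12 early and 0.22, 0.30, 0.27 and 0.23 late, a difference of 0.31 ± 0.08 (p = 0.0024, adjusted p = 0.71 in limma), which lost its call without 30 min replicate 1 (0.25 to 0.37 over all 8). *ZNF93* read −0.06, −0.07, −0.12 and −0.09 early and 0.40, 0.13, 0.00 and 0.22 late, a difference of 0.27 ± 0.09 (p = 0.0085, adjusted p = 0.72 in limma), lost without 1 hr replicate 1, 2 hrs replicate 1 or 3 hrs replicate 2 (0.20 to 0.33 over all 8). The early values of *ZNF93* were tight and the late ones spread. *ZNF75A* differed by 0.46 in the Cy3 orientation and 0.17 in the Cy5 one, and *ZNF93* by 0.38 and 0.16. Probes of this family can share sequence with related genes, so that each value is uncertain as to its gene. The sequence listed on the array as *AB026190* had the third largest difference with the signs turned, and 0.13 with no array turned. It went from −0.29, 0.12, −0.14 and 0.04 early to 0.29, 0.43, 0.25 and 0.12 late. Its phases were divided by a narrow gap. It differed by 0.34 ± 0.10 (p = 0.0038, adjusted p = 0.71 in limma), was positive in both orientations (0.21 and 0.47), and lost its call without 30 min replicate 1 (0.24 to 0.44 over all 8).

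The other 6 called genes belonged to no list and overlapped between the phases. They were *HSAJ2425*, *ICBP90*, *SSX2*, *KIAA0943* and *DUX4*, higher late by 0.29 to 0.32, and *ATBF1*, a large homeobox and zinc finger factor, lower late by 0.28 on the log2 scale. *ICBP90*, which helps to keep DNA methylation through replication, read −0.50 at 30 min replicate 1, and *KIAA0943* and *DUX4* read −0.54 and −0.50 there, each their lowest value. That replicate was the lowest of the 8 for 7 of the 22 called genes and had 26 of all genes under −0.5, against 1 to 11 in each of the other replicates. At the other end, 2 hrs replicate 2 was the highest for 10 of the 22. The 22 genes were chosen by late minus early, and 14 of them were higher late. Low early and high late values are therefore favoured by the choice, and the same counts were not made over all genes. The values of *ATBF1* in the 2 orientations were of opposite sign, 0.19 in the Cy3 and −0.75 in the Cy5 one (p = 0.00023 for their difference, adjusted p = 0.35 in limma).

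**Figure D3:**
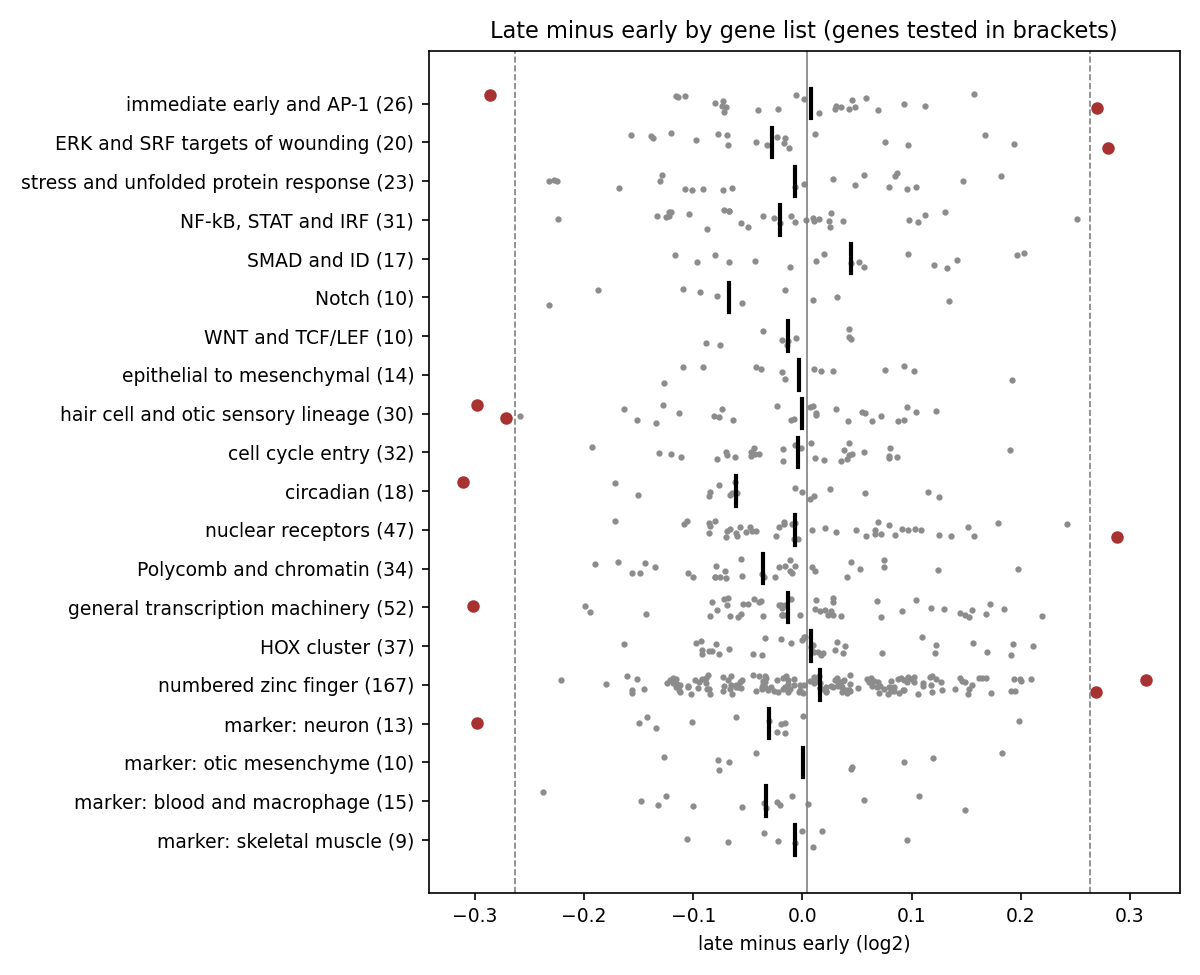
Late minus early (log2) of every tested gene in the 20 lists, with a black bar at the median of each list, red points for the called genes, a grey line at the median of all genes and dashed lines at 1.2-fold. List medians lie between −0.07 (Notch) and 0.04 (SMAD and ID), and 10 genes pass the threshold.

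The lists were not tested as groups. The medians of the 20 lists, 4 of them markers of other cell types, ran from −0.07 to 0.04 on the log2 scale, and called genes numbered 0 in 12 lists, 1 in 5 and 2 in 3, with *NEUROG1* counted in both lists that hold it. Among 23 stress and unfolded protein response genes, none was called, although 3 had p under 0.05 (13.0%, against 6.18% of all genes), all lower late. They were *HSF1*, the master factor of the heat shock response, at −0.23 ± 0.09 (p = 0.020, adjusted p = 0.74 in limma) with no overlap of the phases, *ATF2* at −0.22 ± 0.09 and *DDIT3*, a late factor of endoplasmic reticulum stress, at −0.23 ± 0.11. Among 31 NF-kB, STAT and IRF genes none was called. There 2 had p under 0.05 (6.45%) in opposite directions, *NFKB2* at 0.25 ± 0.11 and *IRF5* at −0.22 ± 0.09. None of 10 Notch genes, 10 WNT and TCF/LEF genes, 14 genes of epithelial to mesenchymal change or 37 HOX genes had p under 0.05, against 6.18% of all genes. Of 32 genes of cell cycle entry 2 had p under 0.05 (6.25%), 1 in each direction. Of 34 Polycomb and chromatin genes 2 had p under 0.05 (5.88%), both lower late, where 25 of the 34 were lower late (median −0.04). Of 17 SMAD and ID genes 1 had p under 0.05 (5.88%), and 11 were higher late, against 775 of all 1504 genes.

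Markers of other cell types were near 0 as well, and their part in the results was not tested. Of 13 neuron markers 11 were lower late (median −0.03), with *NEUROG1* the only one called (7.69%, against 1.46% of all genes). Of 15 blood and macrophage markers 11 were lower late (median −0.03), with none called. Over all 1504 genes, 729 were lower late. In the Cy3 and Cy5 orientations the neuron medians were −0.09 and −0.02, and the blood medians −0.00047 and −0.09. The 10 markers of otic mesenchyme and the 9 of skeletal muscle had medians of 0.00 and −0.01. Mean signals were at least 1000 at every time point for 25 of 30 hair cell and otic genes, and also for 12 of 13 neuron, 10 of 10 mesenchyme, 13 of 15 blood and 6 of 9 muscle markers. Brightness of a human probe on chick cDNA thus did not tell the labelled tissue from others, and the label could not be checked by markers.

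**Figure D4:**
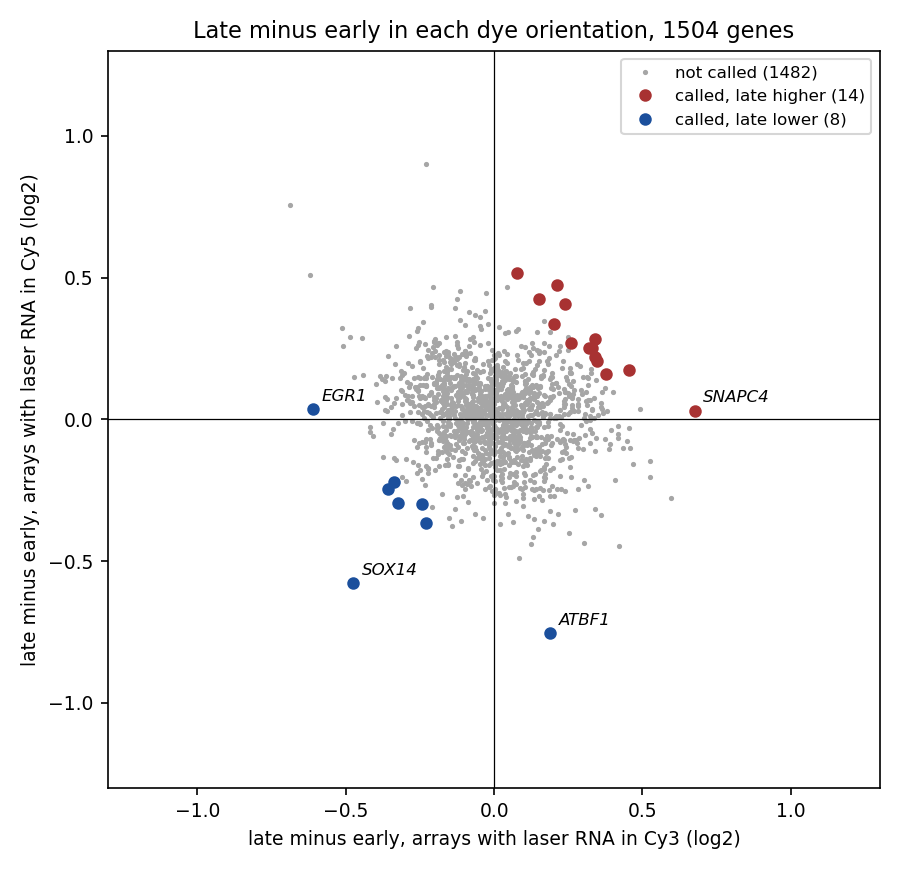
Late minus early (log2) of 1504 genes from laser-in-Cy3 arrays (horizontal) and laser-in-Cy5 arrays (vertical). The cloud shows no common trend (r = −0.17 across genes), and *EGR1* and *SNAPC4* lie close to the horizontal axis, with values in Cy3 alone.

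Late minus early did not carry over from one dye orientation to the other. Across the 1504 genes the values of both orientations correlated at −0.17 (Spearman −0.16), across genes, which are not independent and share RNA samples within a replicate, and 667 genes (44.3%) had the same sign in both. The Cy3 orientation alone gave 103 called genes (6.85%) and the Cy5 one 79 (5.25%), with 0 at an adjusted p under 0.05 in limma and 108 (7.18%) and 87 (5.78%) at an unadjusted p under 0.05. The difference between the orientations had p under 0.05 in 102 genes (6.78%) and an adjusted p under 0.05 in 0, with a median absolute size of 0.16. With every sign left as the dyes gave it, the contrast equals this difference divided by −2, and 45 genes were called. Of the 16 named genes, 7 kept their sign in that setting, with none called, and *SNAPC4* and *EGR1* stood at −0.32 and 0.32. Late minus early from the first spot and from the second correlated at 0.58 across genes.

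**Figure D5:**
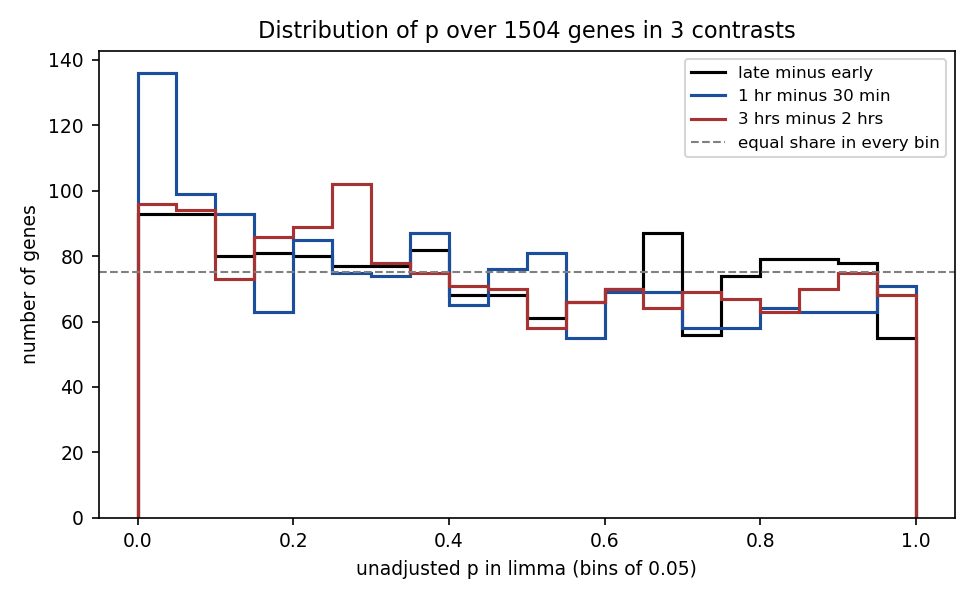
Number of genes in each 0.05-wide bin of the unadjusted limma p for late minus early and for the 2 contrasts within a phase, with a dashed line at an equal share in every bin. The first bins hold 93 genes for late minus early, 136 for 1 hr minus 30 min and 96 for 3 hrs minus 2 hrs.

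Differences within a phase were not smaller than the difference between phases. From 30 min to 1 hr, 136 genes had p under 0.05 (9.04%) and 119 were called (7.91%), and from 2 hrs to 3 hrs, 96 (6.38%) and 80 (5.32%), with 0 at an adjusted p under 0.05 in limma for both. These contrasts rest on 2 replicates a side against 4 for late minus early, so their values spread more widely over genes (SD of 0.16 and 0.15, against 0.10) and pass a fixed fold more often. Replicates of the same phase were not more alike than replicates of different phases. The median correlation across genes was −0.01 for 12 pairs within a phase and −0.02 for 16 pairs between phases, and between −0.01 and 0.21 for the 2 replicates of 1 time point. The arrays of 1 hr and 2 hrs on the 2 shared days, with a day term, left 10 of the 16 named genes called, and those of the day with both phases alone left 5. These arrays are among those that chose the genes, so a kept sign there (15 and 14 of 16) is favoured by the choice.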

How the data were processed

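Per the file headers, the authors deposited scanner intensity values, the mean of each spot and its local background in both channels, without normalization. The authors' table of log2 ratios, laser over control, equals the log2 ratio of raw signals to within 5.77e-15 and served only as an alternative (column medians −1.03 to 1.38). It therefore holds no LOWESS step, the study's selection of hybridizations was not repeated, and all 77 arrays were used.

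In limma 3.58.1 under R 4.3.3, channels were background corrected (normexp, offset 50) and arrays normalized by 1 loess curve with 27 control names at weight 0. Duplicate spots were averaged, the sign of laser-in-Cy3 arrays was turned, and arrays were averaged within an orientation, then over both. Genes entered the fit if their mean signal reached 1000 at any time point (*GASC1*, *HOXC10* and *SP1* were not). The fit had a mean per time point, and p-values were adjusted by Benjamini-Hochberg over 1504 genes. Values after ± are standard errors of the fit unless marked SD. Separate replicates are as labelled, and each pools several cultures. The number of biological replicates, 4 in each phase, limits the precision.

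Named genes were those called at unadjusted p under 0.05 and over 1.2-fold that either had no overlap of the phases (up to 12 in each direction) or belonged to a list, and the 3 with the largest difference. The members and lists were chosen with earlier results of these data known. Replicate numbers did not pair the samples (6 correlations of deviations from −0.25 to 0.17). The procedure was tested on simulated data with a dye effect equal on every array and no day effect on the ratios. Dye effects that vary between arrays or days were not covered by that test. Alternatives changed background, normalization, averaging, filter, orientation, test, time points and replicates.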

Additional observations from a re-analysis of the deposited data

How the results depend on the processing

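Against 22 called genes, plain background subtraction gave 56 (23 higher late, 33 lower) and no background correction 6. The authors' table as deposited gave 244, all lower late, and the same table with centred columns 8. The Cy3 orientation alone gave 103, the Cy5 one 79 and no turning of arrays 45 (23 and 22). An ordinary t-test of the same contrast, with no moderation of the variance, gave 11, and the study's test at each time point was not run. Both shared days with day as a term gave 137 and 1 shared day (chosen after seeing the data) 75. No fold threshold gave 93 and over 1.5-fold 0. Without 30 min there were 35, without 1 hr 101, without 2 hrs 19 and without 3 hrs 117. Of the 19 without 2 hrs, 6 were among the 22. Without 2 hrs, 4 of the 16 named genes stayed called, against 7 without 30 min, 10 without 1 hr and 15 without 3 hrs. Lost without 2 hrs were *AB026190*, *PPARG*, *ETV5*, *SOX3*, *JUNB*, *ZNF93*, *IK*, *TFAP2A*, *DLX3*, *NEUROG1*, *DRAP1* and *NFIL3*, each with its sign kept. Leaving out 1 replicate gave 19 to 69, the most without 30 min replicate 2, then 67 without 2 hrs replicate 2, 44 without 3 hrs replicate 1 and 43 without 1 hr replicate 2. Fewer samples widen the spread of values, and other causes were not tested. Counts at an adjusted p under 0.05 and over 1.2-fold were 0 under every alternative run (smallest adjusted p 0.157, without 2 hrs replicate 1). The replicate number as a block left 22 calls, with the same 22 genes called, and changed no named call.

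In the authors' table the median of all genes was −0.19, and relative to it no named gene changed sign. As deposited, *AB026190* stood at −0.038, *PPARG* at −0.038, *ZNF93* at −0.028 and *IK* at −0.011. With no array turned, *SNAPC4* was −0.32, *ZNF75A* −0.14, *ETV5* −0.060, *SOX3* −0.069, *ZNF93* −0.11, *DLX3* 0.058, *DRAP1* 0.057, *NFIL3* 0.014 and *EGR1* 0.32. *EGR1* was also positive under plain subtraction (0.050), in Cy5 alone (0.037), on the shared days (0.10 with a day term, 0.023 on 1 day) and without 30 min (0.11), and *ETV5* was −0.094 on 1 day. Over 575 values of named genes under alternatives, 362 stayed on the same side of the threshold, 194 kept their sign and lost the call, and 19 changed sign. Several alternatives, such as the filters and the replicate block, leave the value itself unchanged and add to the 362. Among those that change it, no background correction left 3 of the 16 named genes called and median centring 12. The median over arrays within an orientation, in place of their mean, left 5 (*SNAPC4*, *AB026190*, *PPARG*, *IK* and *SOX14*). All 16 kept their sign there. Some of the lost genes had an array far from the median. At 30 min the lowest laser-in-Cy5 array read −3.39 for *JUNB*, −3.08 for *ETV5* and −2.79 for *ZNF75A* (medians −0.09, −0.29 and −0.02). For *SOX3*, the lowest laser-in-Cy3 array at 1 hr read −2.665 (median −0.17). The replicate values given above are means that include these arrays. In the median array the spot signal was 3.29 times its local background, which limits dim genes such as *EGR1*.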
